A study of Mus musculus with 9 samples.

Results

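The Serpina3 genes encode a subfamily of serine protease inhibitors that mice carry as a tandem cluster on chromosome 12, where humans have a single gene. The 8 genes described here are Serpina3c, Serpina3f, Serpina3g, Serpina3h, Serpina3i, Serpina3k, Serpina3m and Serpina3n, taken by gene name from a table of 54532 genes. They were chosen with their measured levels in these libraries known, so their levels and fold changes are given as a description, without a test. The table listed 14 Serpina3 entries in all, and the other 6 were Serpina3a, Serpina3b, Serpina3j and 3 pseudogenes.

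A serpin holds out a flexible reactive centre loop as bait, and the protease that cuts it is trapped in a covalent complex that inactivates both proteins. The loop sets which protease is caught, and in the mouse Serpina3 cluster it is the part of the protein that differs most between copies. Serpina3n is an acute-phase protein of liver, astrocytes and fibroblasts that inhibits granzyme B and leukocyte elastase. Serpina3g, also known as Spi2A, is an intracellular inhibitor of cysteine cathepsins that is induced through NF-kB and interferons. IL-6 family cytokines, acting through STAT3, and glucocorticoids are textbook inducers of acute-phase serpins.

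RNA was sequenced from 3 libraries each of pECDCs, iECDCs and SB431542-treated cells, all from C57BL/6 mouse heart. pECDCs were untreated primary epicardium-derived cardiosphere-derived cells, which the labels place at passage 0 and the study's methods at a later passage. iECDCs were untreated cells of the same origin that carried hTERT, the catalytic subunit of human telomerase, delivered by a lentivirus, at passage 30, so hTERT and time in culture cannot be told apart. SB431542 blocks the type I receptors of TGF-β and activin. The labels describe the third group as iECDCs at passage 30 given SB431542 for 3 days, whereas the study's methods name an epithelial clone derived from pECDCs. By the labels both the iECDC and the treated groups carried hTERT. By the methods the treated cells differed from iECDCs in origin as well, and may have lacked hTERT. Treatment, cell origin and hTERT then cannot be told apart. Against pECDCs, by the labels, SB431542, hTERT and time in culture differed together and cannot be told apart either. No label says that libraries of a group came from separate animals or cultures, so p-values measure only the spread between these libraries, which may be technical.

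Total counts were 16568306 to 23951392 per library. All 7 markers of cardiosphere-derived cells had more than 3 counts in at least 1 library of every group, and their summed level was 928 to 945 FPKM (reads scaled to gene length and to the depth of the library) in pECDCs, 814 to 901 in iECDCs and 669 to 1126 in SB431542-treated cells. Most of this sum was Col1a1 in each group, with means of 647, 528 and 599 FPKM in pECDCs, iECDCs and treated cells. SB431542-treated replicate 2 stood apart from its group. The chi-square of 2 libraries' counts per degree of freedom, which would be near 1 if libraries differed by counting error alone, was 71.5 and 70.3 for the pairs with it and 3.79 for replicates 1 and 3. iECDC replicate 3 also stood apart, at 30.8 and 24.9 against 4.61 for the other pair, and the pECDC pairs gave 2.70 to 4.23. Results that rest on treated replicate 2 are therefore given with and without it.

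The reactive centre loop codons are shown first, because they are where the copies of this family can best be told apart. The coordinates are those of GRCm38, the sequences come from the GENCODE M21 transcripts, and each line runs 5′ to 3′ along the transcript. Capitals mark the loop codons, between the conserved hinge and the conserved strand that follows it.
Serpina3n, chr12:104413442-104413537, + strand: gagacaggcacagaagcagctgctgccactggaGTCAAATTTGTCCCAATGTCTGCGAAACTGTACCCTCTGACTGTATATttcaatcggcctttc
Serpina3g, chr12:104241066-104241161, + strand: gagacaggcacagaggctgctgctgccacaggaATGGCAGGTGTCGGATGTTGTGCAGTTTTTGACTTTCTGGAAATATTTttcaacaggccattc
Serpina3i, chr12:104268474-104268569, + strand: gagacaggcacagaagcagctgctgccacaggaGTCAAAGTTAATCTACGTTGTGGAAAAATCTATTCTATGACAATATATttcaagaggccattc
Serpina3h, chr12:104253505-104253600, + strand: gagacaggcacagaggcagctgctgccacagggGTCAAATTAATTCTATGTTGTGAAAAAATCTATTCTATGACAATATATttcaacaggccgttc
Serpina3f, chr12:104220239-104220337, + strand: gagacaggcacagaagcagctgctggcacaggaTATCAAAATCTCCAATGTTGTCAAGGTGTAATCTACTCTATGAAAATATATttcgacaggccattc
Serpina3m, chr12:104393763-104393858, + strand: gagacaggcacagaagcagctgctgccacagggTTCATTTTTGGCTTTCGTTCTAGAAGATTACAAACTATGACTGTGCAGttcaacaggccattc
Serpina3c, chr12:104147307-104147393, - strand: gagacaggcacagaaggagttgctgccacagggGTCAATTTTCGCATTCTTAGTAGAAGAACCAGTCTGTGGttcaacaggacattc
All of these stretches lay in the last annotated exon of their transcript. The flanking codons are nearly the same in every copy, while the loops were 39 to 51 bases long and differed from copy to copy. Between Serpina3n and Serpina3g, 22 of 48 aligned loop bases were the same (45.8%), against 84.3% over 648 aligned coding bases. The coding sequence used was 744 bases for Serpina3g and 1254 for Serpina3n, so only part of the latter was compared. The most alike loops were those of Serpina3h and Serpina3i, with 43 of 48 bases the same (89.6%). Serpina3h is annotated as a transcribed unprocessed pseudogene, so its letters are of a transcript and not of a known protein. Serpina3k, whose loop is not shown because it had no reads, shared 38.1% of aligned loop bases with Serpina3f, the lowest value of the 28 pairs.

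Paralogs this close may share reads. Of all 100-base windows of their transcripts, 0.204% of those of Serpina3n occurred unchanged in another Serpina3 gene, all of them (4 windows) in the pseudogene Serpina3e-ps and 1 of them also in Serpina3g. The share was 3.49% for Serpina3g, 2.25% for Serpina3i, 3.40% for Serpina3f and 3.60% for Serpina3h, which shared windows among themselves. It was 6.09% for Serpina3m and 4.85% for Serpina3k, each with the other, and 0 for Serpina3c. With 50-base windows the shares were 6.90% for Serpina3n, 15.5% for Serpina3g and 21.9% for Serpina3h. No window was found in a gene outside the family. The counting program and its treatment of reads with several matches are not given in the sources used here. The values of Serpina3f, Serpina3g, Serpina3h, Serpina3i and Serpina3m, above all the low ones, carry that uncertainty. The low values of Serpina3c carry it too, since 4.25% of its 50-base windows were shared, 25 of them with Serpina3n.

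**Figure D1:**
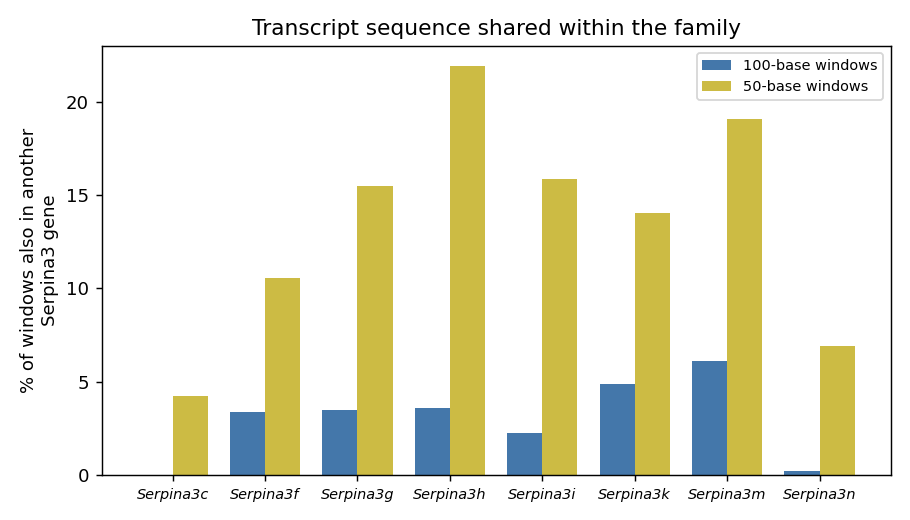
Percentage (y axis) of all 100-base windows (blue) and 50-base windows (yellow) of each gene's transcripts (x axis) that occur unchanged in another Serpina3 gene. Serpina3n had 0.204% and 6.90%, whereas Serpina3h reached 21.9% and Serpina3m 19.1% at 50 bases.

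Serpina3n (ENSMUSG00000021091, chr12:104406729-104414329, + strand) carried most of the family's RNA. Its level was 26.2, 33.4 and 34.1 FPKM in pECDC replicates 1, 2 and 3 and 24.4, 24.8 and 22.7 FPKM in iECDC replicates 1, 2 and 3. In SB431542-treated cells it was 508, 91.0 and 530 FPKM in replicates 1, 2 and 3. Every treated library lay above every untreated one, with replicate 2 far below the other treated libraries, and the iECDC libraries lay below all pECDC libraries by little. The group means were 31.3 ± 4.36 (SD, n = 3), 24.0 ± 1.12 and 376 ± 247 FPKM. In order of FPKM among the genes of a library, Serpina3n stood at place 1647 to 2635 in the untreated libraries, at 57 and 54 in treated replicates 1 and 3 and at 546 in treated replicate 2. On the count scale of edgeR the log2 fold change was -0.39 (SE 0.103) for iECDCs against pECDCs, 3.99 (SE 0.593) for treated cells against iECDCs and 3.60 (SE 0.625) for treated cells against pECDCs. Without treated replicate 2 the latter 2 were 4.44 and 4.07. Any 2 of the 3 comparisons share a group of libraries, so they are not independent of each other.

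Serpina3g (ENSMUSG00000041481, chr12:104236245-104241939, + strand) was low in untreated cells, at 0.852, 1.58 and 1.65 FPKM in pECDC replicates 1, 2 and 3 (44, 66 and 81 reads). In iECDCs it was at 0.188, 0.260 and 0.309 FPKM, from 8, 9 and 10 reads. In treated cells it was at 49.2, 4.18 and 48.1 FPKM, from 1818, 185 and 1831 reads. The groups did not overlap, and iECDCs were the lowest and treated cells the highest. The log2 fold change was -2.45 (SE 0.355) for iECDCs against pECDCs, 7.09 (SE 1.04) for treated cells against iECDCs and 4.66 (SE 0.917) for treated cells against pECDCs. Leaving out treated replicate 2 gave 7.61 and 5.19. Relative to the iECDC mean, Serpina3g was 195-fold and 191-fold higher in treated replicates 1 and 3 and 16.5-fold higher in replicate 2, where Serpina3n was 21.2-fold, 22.1-fold and 3.80-fold higher.

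Serpina3i (ENSMUSG00000079014, chr12:104263122-104269372, + strand), the neighbour of Serpina3h, had 27, 17 and 26 reads in pECDC replicates 1, 2 and 3. It had 1, 4 and 1 reads in the iECDC libraries and 248, 43 and 244 in the treated libraries. The order of the groups was the same as for Serpina3g, again without overlap. As FPKM the group means were 0.460 ± 0.0658 (SD, n = 3) in pECDCs, 0.0536 ± 0.0484 in iECDCs and 4.45 ± 3.06 in treated cells. The log2 fold change was -3.10 (SE 0.482) for iECDCs against pECDCs and was -4.06 without iECDC replicate 2, the library with 4 of the 6 reads. Against iECDCs the treated cells were higher by 6.34 (SE 0.961) on the log2 scale and against pECDCs by 3.26 (SE 0.707), or by 6.82 and 3.75 without treated replicate 2.

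**Figure D2:**
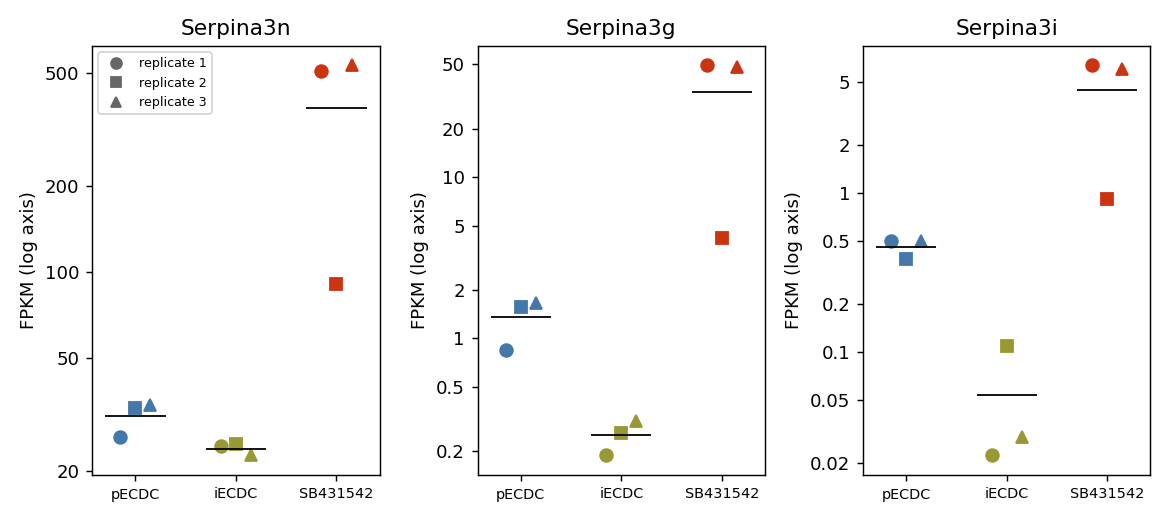
FPKM (y axis, log scale, a different range in each panel) of Serpina3n, Serpina3g and Serpina3i in the 3 libraries of each group (x axis), with the symbol giving the replicate and a line at the group mean. Treated replicate 2 (square) lay between the untreated libraries and the other treated ones for all 3 genes, at 91.0, 4.18 and 0.919 FPKM.

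These 3 genes were the only members with enough reads for the fit across genes, since at least 3 libraries had to pass a minimum of about 10 reads. In that fit, which tested 13752 genes, 2258 (16.4%) passed an adjusted p of 0.05 for iECDCs against pECDCs, and all 3 members tested were among them, all lower in iECDCs, where 9.21% of genes were lower and 7.21% higher. For treated cells against iECDCs 30.0% of 13559 genes passed, 16.0% higher and 14.0% lower, and the 3 members tested were among those higher. For treated cells against pECDCs 34.8% of 14015 genes passed, 17.9% higher and 17.0% lower, and again the 3 members were higher. Nothing is read from these counts, because the members were chosen from these comparisons and the 5 others were not tested. In bulk RNA, fewer cells that express a gene and less RNA per cell cannot be told apart.

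The other members had few reads and were at most 1.47 FPKM in any library. Serpina3f, encoded next to Serpina3g, had 0, 2 and 0 reads in pECDC replicates 1, 2 and 3, 0, 1 and 0 in iECDCs and 52, 4 and 45 in treated cells. Serpina3m had 2, 0 and 0 reads in pECDCs, 2, 1 and 0 in iECDCs and 43, 8 and 32 in treated cells. For both genes every treated library was above every untreated one. Serpina3h had 0, 0 and 3 reads in pECDCs, 0, 0 and 1 in iECDCs and 17, 0 and 38 in treated cells, so treated replicate 2 was level with the untreated libraries. Serpina3c, the member on the - strand, had 6, 6 and 7 reads in pECDCs, 1, 2 and 1 in iECDCs and 47, 2 and 37 in treated cells. Here treated replicate 2 was at the level of iECDCs and below pECDCs.

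Counts of these genes were summed over the libraries of a group and divided by the summed library sizes, with 95% exact intervals that cover counting error only. For treated cells over iECDCs the ratio was 93.0 for Serpina3f (101 against 1 read, 16.3 to 3709), 50.6 for Serpina3h (55 against 1, 8.72 to 2036) and 25.5 for Serpina3m (83 against 3, 8.42 to 126). For Serpina3c it was 19.8 (86 against 4, 7.46 to 74.3). Without treated replicate 2 the ratios were 142, 80.4, 36.6 and 30.7 in the same order. For treated cells over pECDCs they were 60.2 for Serpina3f, 21.9 for Serpina3h, 49.5 for Serpina3m and 5.40 for Serpina3c, and without treated replicate 2 they were 91.8, 34.7, 71.0 and 8.37. Serpina3c was also 3.67-fold higher in pECDCs than in iECDCs by summed counts (19 against 4, 1.22 to 14.8). Serpina3f, Serpina3h and Serpina3m had at most 3 reads in each untreated group, so no fold is given between those.

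**Figure D3:**
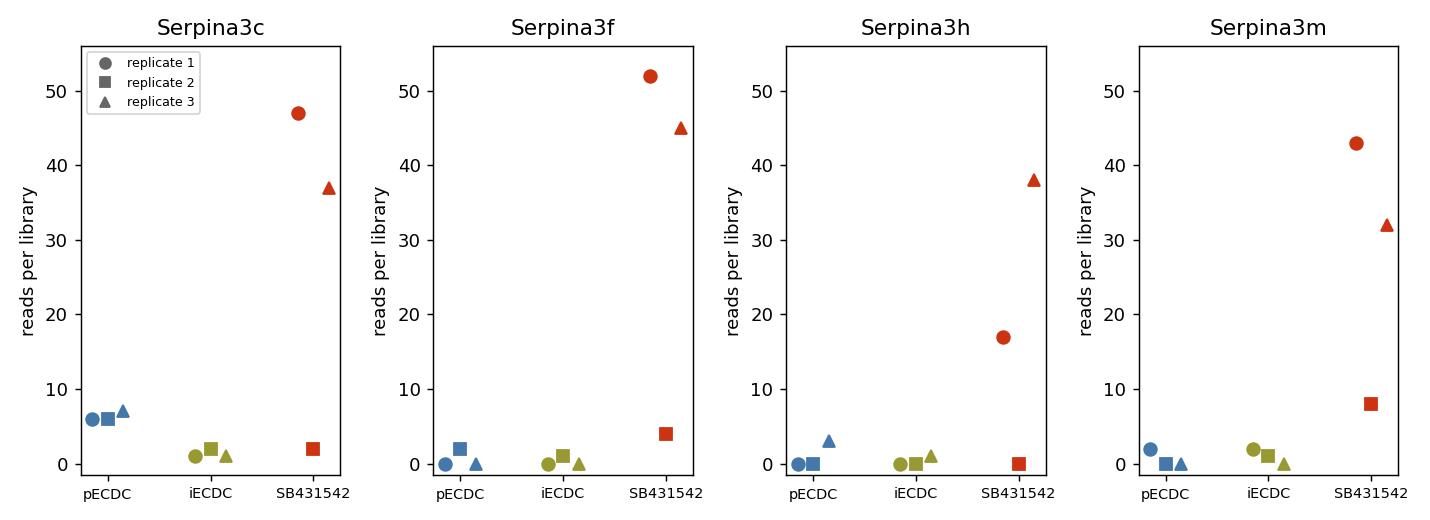
Reads per library (y axis) for Serpina3c, Serpina3f, Serpina3h and Serpina3m in the 3 libraries of each group (x axis), with the symbol giving the replicate. Treated replicates 1 and 3 had 17 to 52 reads and treated replicate 2 had 0 to 8, beside 0 to 7 in the untreated libraries.

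Serpina3k, a hepatic serpin, had 0 reads in all 9 libraries. It overlaps Serpina3m in the annotation, where both start at chr12:104338486 on the + strand. Of the entries that are not members, Serpina3a, Serpina3j and Serpina3l-ps also had 0 reads in every library. Serpina3b had at most 3 reads in any library and Serpina3e-ps at most 4. Serpina3d-ps had 14, 7 and 16 reads in the treated libraries and at most 6 in the untreated ones.

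Summed over the 8 members, the level was 27.7 to 36.5 FPKM in pECDCs, 23.1 to 25.3 in iECDCs, and 568, 96.5 and 589 in treated replicates 1, 2 and 3. Serpina3n made up 93.5% to 94.6% of this sum in pECDCs and 98.1% to 98.8% in iECDCs. In treated replicates 1, 2 and 3 it made up 89.4%, 94.4% and 90.0%. The mixture of members thus differed between libraries. Serpina3g was at 3.25% to 4.83% of the FPKM of Serpina3n in pECDCs, at 0.771% to 1.36% in iECDCs and at 9.70%, 4.59% and 9.08% in treated replicates 1, 2 and 3. Treated replicate 2 fell within the range of pECDCs, and iECDCs were below all other libraries. Serpina3k did not contribute in any library.

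**Figure D4:**
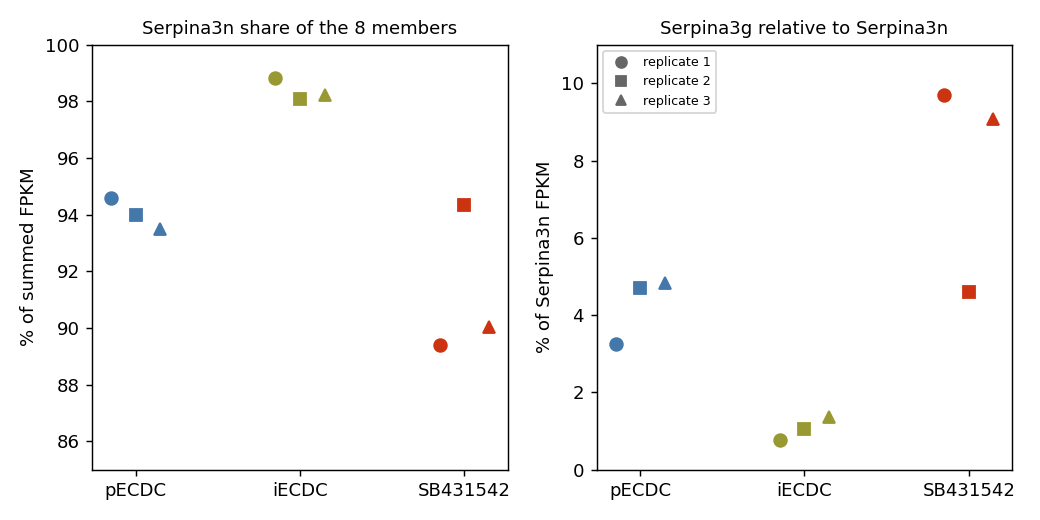
Left, Serpina3n as a percentage of the summed FPKM of the 8 members (y axis, from 85% to 100%). Right, the FPKM of Serpina3g as a percentage of that of Serpina3n. Points are the 3 libraries of each group (x axis) with the symbol giving the replicate, and iECDCs had the highest Serpina3n share (98.1% to 98.8%) and the lowest Serpina3g ratio (0.771% to 1.36%).

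RefSeq promoter entries (GRCm38.p6) were given for 5 of the 8 members. A stretch of 100 bases upstream of each start is shown, because the members differ there in letters that fit STAT and NF-kB sites. The windows are aligned on the bases agaaatca, which occur once in each, and capitals mark TTCNNNGAA, the letters that STAT proteins prefer, and GGG and CC with 5 bases between them, the letters of NF-kB sites, both searched on both strands.
Serpina3n, chr12:104406515-104406614, + strand: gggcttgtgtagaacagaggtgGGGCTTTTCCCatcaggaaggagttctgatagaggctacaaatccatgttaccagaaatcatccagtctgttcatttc
Serpina3c, chr12:104153963-104154062, - strand: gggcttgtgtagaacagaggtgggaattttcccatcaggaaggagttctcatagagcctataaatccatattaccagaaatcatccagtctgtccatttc
Serpina3g, chr12:104236044-104236143, + strand: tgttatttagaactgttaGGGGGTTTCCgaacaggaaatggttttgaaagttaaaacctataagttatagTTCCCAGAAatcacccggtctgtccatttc
Serpina3i, chr12:104262950-104263049, + strand: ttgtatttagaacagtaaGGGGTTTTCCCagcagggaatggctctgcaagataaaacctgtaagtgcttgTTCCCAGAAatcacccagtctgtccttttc
Serpina3f, chr12:104214353-104214452, + strand: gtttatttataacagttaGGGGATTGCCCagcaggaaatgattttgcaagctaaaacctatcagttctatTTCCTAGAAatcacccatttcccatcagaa
TTCNNNGAA was present in the 250 bases before the start of Serpina3f, Serpina3g and Serpina3i, and in 7.02% of 32851 mouse promoters of that length. Serpina3f had 2 entries with different starts, and the window shown is that of the upstream one. The match began at base -121 of Serpina3f (-210 from its other start), -33 of Serpina3g and -102 of Serpina3i, counted from the RefSeq start, which for Serpina3g lies upstream of the start in the deposited table. At the aligned place Serpina3n and Serpina3c had ttaccagaa, which is 1 letter off the motif. The NF-kB letters were present in Serpina3f, Serpina3g, Serpina3i and Serpina3n, not in Serpina3c or in the 250 bases before the other start of Serpina3f, and in 45.8% of all promoters. Where Serpina3n had GGGCTTTTCC, Serpina3c had ggaattttcc, which is 1 letter off. The NF-kB letters began at base -173 of Serpina3f, -85 of Serpina3g and -154 of Serpina3i, and at -171 and -43 of Serpina3n. A match is a description of letters and not a bound site.

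The regulators of this family that are known from textbooks were named as 11 genes, and their counts come from the same fit across all genes, by the quasi-likelihood test of edgeR, with p-values adjusted over all genes tested. Against iECDCs, 10 of the 11 rose in treated cells and 0 fell, where 16.0% of all genes tested were higher and 14.0% lower. The 11 were drawn up with earlier results of these libraries known. Some of them, such as Irf1 and Nfkbia, are counted again in the lists below. Osmr, the receptor subunit for oncostatin M, was at 22.7, 19.5 and 24.4 FPKM in treated replicates 1, 2 and 3 and at 8.96 to 10.3 in iECDCs, a log2 fold change of 1.24 (SE 0.126, edgeR adjusted p = 0.000912). Socs3, the feedback inhibitor that STAT3 induces, was at 42.0, 29.0 and 43.4 FPKM against 17.4 to 18.9 in iECDCs (log2 fold change 1.08, SE 0.160, edgeR adjusted p = 0.00311). For both genes treated replicate 2 was the lowest of its group and still above all iECDC libraries.

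Cebpd, a transcription factor of the acute-phase response, rose by 1.35 (SE 0.150, edgeR adjusted p = 0.00117), and its partner Cebpb by 0.80 (SE 0.124, edgeR adjusted p = 0.00375). Irf1, an interferon-induced transcription factor, rose by 1.05 (SE 0.137, edgeR adjusted p = 0.00199) and Nfkbia, the NF-kB inhibitor that NF-kB itself induces, by 0.90 (SE 0.174, edgeR adjusted p = 0.0085). Il6st, the shared gp130 subunit, rose by 1.13 (SE 0.241, edgeR adjusted p = 0.0118). Stat3 itself rose by 0.50 (SE 0.117, edgeR adjusted p = 0.0166), Nr3c1, the glucocorticoid receptor, by 0.59 (SE 0.161, edgeR adjusted p = 0.027) and Nfkb1 by 0.37 (SE 0.106, edgeR adjusted p = 0.0335), and the calls of these 3 were kept in only 6, 6 and 5 of 11 alternative fits. Against pECDCs the counts were again 10 higher and 0 lower, where 17.9% of all genes tested were higher and 17.0% lower. Without treated replicate 2 the regulator counts were 10 and 0 in both comparisons. In all, 7001 and 9188 genes then passed, beside 4061 and 4881 with it. List counts without that replicate, here and below, are to be read beside those totals.

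Between iECDCs and pECDCs 5 of the 11 regulators fell and 0 rose, where 9.21% of all genes tested were lower and 7.21% higher. Socs3 was lower in iECDCs by a log2 fold change of -0.34 (SE 0.0645, edgeR adjusted p = 0.00773), Osmr by -0.42 (SE 0.0702, edgeR adjusted p = 0.00433), Cebpd by -0.34 (SE 0.0621, edgeR adjusted p = 0.00722) and Irf1 by -0.44 (SE 0.0904, edgeR adjusted p = 0.0117). The other 6 did not pass, among them Stat3 at -0.11 (SE 0.0655, edgeR adjusted p = 0.291) and Cebpb at -0.09 (SE 0.105, edgeR adjusted p = 0.594). Osmr kept its call in 11 of 11 alternative fits, and Socs3, Cebpd and Irf1 kept theirs in 9 of 11.

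In the IL-6 family, 4 cytokines fell in treated cells while receptor subunits and kinases rose. Of 18 genes of this list that were tested, 11 rose and 4 fell against iECDCs, with a median log2 fold change of 0.60 beside 0.00 over all genes tested. Those that fell were the cytokines Il11 (-3.82, SE 0.715, edgeR adjusted p = 0.00754), Lif (-2.10, SE 0.420, edgeR adjusted p = 0.00939), Il6 (-1.04, SE 0.284, edgeR adjusted p = 0.0283) and Clcf1 (-1.03, SE 0.181, edgeR adjusted p = 0.00587). Il6 was at 8.10, 6.83 and 11.1 FPKM in treated libraries and at 22.4, 20.5 and 10.9 in iECDC replicates 1, 2 and 3, so its groups overlapped through iECDC replicate 3. The receptor subunits Cntfr (1.74, SE 0.291, edgeR adjusted p = 0.00485), Lifr (1.58, SE 0.153, edgeR adjusted p = 0.000784) and Il6ra (1.04, SE 0.138, edgeR adjusted p = 0.00206) rose, as did the kinases Jak1, Jak2 and Tyk2, by 0.48, 1.02 and 0.68. Against pECDCs 11 rose and 4 fell as well, and without treated replicate 2 the counts were 12 and 4 against iECDCs and 13 and 5 against pECDCs.

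The other acute-phase genes were described next, since Serpina3n belongs to that response. Of 12 tested, 11 rose and 0 fell in treated cells against iECDCs, with a median log2 fold change of 3.19, and without treated replicate 2 it was 12 of 14. Lrg1, a secreted leucine-rich glycoprotein, was at 11.3, 2.40 and 10.7 FPKM in treated replicates 1, 2 and 3 and at 0 to 0.106 in iECDCs. Steap4, a metalloreductase, was at 10.1, 2.09 and 10.4 against 0.116 to 0.204, and haptoglobin (Hp) at 5.04, 1.57 and 7.13 against 0.0925 to 0.227. Treated replicate 2 was the lowest of the treated libraries for all 3, and above every untreated library. The log2 fold changes were 6.81 (SE 0.860, edgeR adjusted p = 0.00178), 5.63 (SE 0.708, edgeR adjusted p = 0.00176) and 4.84 (SE 0.671, edgeR adjusted p = 0.00247). Complement C3 rose by 3.70 (SE 0.353, edgeR adjusted p = 0.000732) and ceruloplasmin (Cp) by 4.22 (SE 0.608, edgeR adjusted p = 0.00284). The gene that did not pass was Ptx3, encoding pentraxin 3 (0.46, SE 0.274, edgeR adjusted p = 0.236).

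Against pECDCs 9 of 12 acute-phase genes rose and 0 fell (median 1.62), and without treated replicate 2 it was 11 of 13. Lcn2, the siderophore-binding lipocalin, was among those that did not pass (-0.40, SE 0.207, edgeR adjusted p = 0.179), at 1.18 to 1.46 FPKM in treated cells and 1.30 to 1.99 in pECDCs. For iECDCs against pECDCs 7 of 11 fell and 0 rose (median -0.72), and Lcn2 fell by 3.08 on the log2 scale (SE 0.291, edgeR adjusted p = 0.00021). Steap4 fell by 2.61 (SE 0.262, edgeR adjusted p = 0.00029), as Lbp did by 3.06 (SE 0.278, edgeR adjusted p = 0.00016), whereas Saa3 did not pass (-0.38, SE 0.173, edgeR adjusted p = 0.171).

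**Figure D5:**
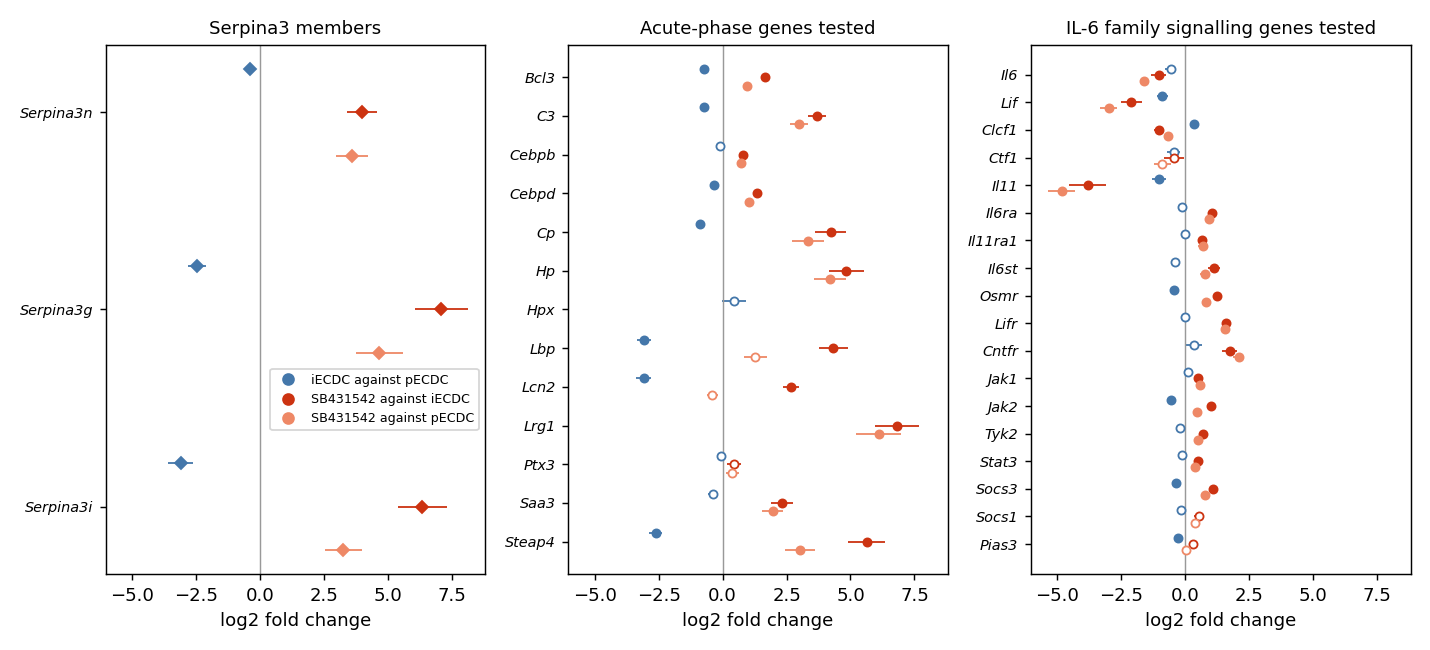
Log2 fold change (x axis) with its standard error for the 3 members that were tested (left, diamonds, shown without a test), the acute-phase genes (middle) and the IL-6 family genes (right), in the 3 comparisons given by colour. Filled circles passed an edgeR adjusted p of 0.05 and open ones did not, and the cytokines Il6, Lif, Clcf1 and Il11 lay to the left of 0 for treated cells while the receptor subunits lay to the right.

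The interferon, NF-kB and glucocorticoid lists hold the other known inducers of the family and their targets. For iECDCs against pECDCs 13 of 19 interferon response genes fell and 0 rose, led by Isg15, a ubiquitin-like interferon-induced protein (-2.21, SE 0.319, edgeR adjusted p = 0.00212), and Irf7 (-1.48, SE 0.170, edgeR adjusted p = 0.000633). For treated cells against iECDCs 7 of 20 rose and 0 fell, among them Gbp2, a guanylate-binding protein (1.56, SE 0.224, edgeR adjusted p = 0.00284), and without treated replicate 2 it was 11 higher and 2 lower. Against pECDCs 6 rose and 4 fell, the latter led by Isg15 (-2.42, SE 0.250, edgeR adjusted p = 0.00095). Of 15 NF-kB pathway genes 9 rose and 1 fell against iECDCs, with Vcam1, a leukocyte adhesion molecule, at 64.8 ± 0.994 FPKM (SD, n = 3) in treated cells and 27.8 ± 4.14 in iECDCs (1.23, SE 0.139, edgeR adjusted p = 0.0012). Without treated replicate 2 it was 13 higher and 1 lower of 16. Of 11 glucocorticoid response genes 5 rose and 1 fell, or 5 and 4 without treated replicate 2, and the one that fell, Tsc22d3, encodes GILZ, a textbook glucocorticoid target (-0.70, SE 0.165, edgeR adjusted p = 0.0166). Klf9, another such target, rose by 1.39 (SE 0.149, edgeR adjusted p = 0.00109).

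The lists other than the markers and the 11 regulators hold 159 genes. For iECDCs against pECDCs 45 of 97 tested passed (46.4%, beside 16.4% of all genes). It was 64 of 100 for treated cells against iECDCs (64.0%, beside 30.0%) and 63 of 101 against pECDCs (62.4%, beside 34.8%). The median log2 fold change of the listed genes was -0.29, 0.55 and 0.38. Without treated replicate 2 the counts for treated cells against iECDCs and pECDCs were 83 of 105 and 93 of 104. In all, 7001 and 9188 genes then passed, beside 4061 and 4881 with all libraries. The rise in passing genes was thus not particular to the lists. The lists were drawn up with earlier results of these libraries known, so these shares describe the lists and single out none of them.

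Of the protease classes that Serpina3 proteins are known to inhibit, the serine proteases listed were at low levels and several cysteine cathepsins at high levels. None of the 14 serine proteases listed, among them granzyme B, neutrophil elastase and cathepsin G, reached 1 FPKM in any library. Prtn3, proteinase 3 of neutrophil granules, was the only one tested against iECDCs, and it rose in treated cells to 0.757, 0.357 and 0.959 FPKM in replicates 1, 2 and 3 from 0 to 0.0702 in iECDCs (log2 fold change 4.22, SE 0.724, edgeR adjusted p = 0.00543). Of 8 cysteine cathepsins tested, the protease class to which the known targets of Serpina3g belong, 2 rose and 1 fell against iECDCs. Ctsz was at 207 to 274 FPKM and Ctsl at 63.7 to 94.4 FPKM over the 9 libraries, and neither passed in any comparison. Ctsh, an aminopeptidase of lysosomes, fell by 1.80 (SE 0.138, edgeR adjusted p = 0.000395) and Ctso rose by 1.79 (SE 0.390, edgeR adjusted p = 0.0127). Ctsb was at 189 ± 49.8 FPKM (SD, n = 3) in treated cells and 113 ± 15.8 in iECDCs (0.75, SE 0.217, edgeR adjusted p = 0.0341), and kept its call in 5 of 11 alternative fits.

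None of 18 other clade A serpins reached 1 FPKM in any library, and of the Serpina1 genes, which encode alpha-1-antitrypsin, only Serpina1e had any reads, at 0.0805 FPKM or below. Of 14 serpins of other clades 5 rose and 6 fell in treated cells against iECDCs. Serpini1, neuroserpin, fell by 2.32 (SE 0.240, edgeR adjusted p = 0.000984), while Serpinb8 rose by 2.26 (SE 0.408, edgeR adjusted p = 0.00657). For iECDCs against pECDCs 3 rose and 4 fell, with Serpinb2, the plasminogen activator inhibitor PAI-2, at -1.45 (SE 0.0765, edgeR adjusted p = 6.15e-06).

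Because Serpina3 genes are strongly expressed in liver and some leukocytes, the markers of those cells were set beside the members. Of 7 hepatocyte markers, 5 had at most 3 counts in every treated library, albumin (Alb), transthyretin (Ttr) and Apoa1 among them. The summed level of the 7 was 2.06 to 2.56 FPKM in pECDCs, 1.16 to 1.79 in iECDCs and 1.73 to 11.1 in treated cells, where Ahsg, the secreted glycoprotein fetuin-A, was at 8.28, 0.844 and 9.82 FPKM in replicates 1, 2 and 3. Of 8 haematopoietic markers, Ptprc, Adgre1, Itgam and Cd3e had at most 3 counts in every treated library, and the sum over the list was 11.9 to 13.4 FPKM in pECDCs, 11.2 to 16.1 in iECDCs and 16.0 to 17.7 in treated cells. The other 4 were expressed. Cd14 was at 7.55 to 8.84 FPKM in treated cells and 3.73 to 5.46 in iECDCs (log2 fold change 0.80, SE 0.186, edgeR adjusted p = 0.0154), and Csf1r at 4.51 to 7.41 and 3.46 to 6.32. Lyz2 was at 1.08 to 1.89 FPKM in treated cells, 2.63 to 3.31 in iECDCs and 0.434 to 0.534 in pECDCs, and Cd68 at 0.862 to 1.06 in treated cells and 1.48 to 2.04 in pECDCs. Of these 4, 1 rose and 1 fell in treated cells against iECDCs, and 2 rose and 1 fell against pECDCs. The summed mesothelial markers were at 18.7 to 19.9, 29.0 to 31.6 and 24.9 to 39.9 FPKM in pECDCs, iECDCs and treated cells, most of it Krt19. Krt8 and Krt18, of the 7 listed, had at most 3 counts in every treated library. Of 3 mesothelial markers tested, 2 rose, 0 fell and 1 did not pass in treated cells in both comparisons. The median log2 fold change of the 3 tested was 3.45 against iECDCs and 2.49 against pECDCs. Upk3b was at 1.16, 1.31 and 1.36 FPKM in treated replicates 1, 2 and 3 and at 0.0561 to 0.166 in the untreated libraries (3.45 against iECDCs, SE 0.350, edgeR adjusted p = 0.000912). Wt1 was at 0.396, 0.107 and 0.348 FPKM and at 0 to 0.0921 (4.40 against iECDCs, SE 0.780, edgeR adjusted p = 0.00615). Both were higher in every treated library than in the untreated ones, as Serpina3n was. Treated replicate 2 was the lowest of its group for Wt1, as for Serpina3n, but not for Upk3b. The 6 endothelial markers summed to at most 0.165 FPKM and the 6 cardiomyocyte markers to at most 2.31 FPKM in any library. The part of the cells behind the haematopoietic and mesothelial markers in the Serpina3 levels was not tested.

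The genes with a profile most like that of Serpina3n were taken as those with the smallest root mean square difference between log2(FPKM + 1) profiles over the 9 libraries, each centred on its own mean. Among 201 genes with a mean of at least 1 FPKM and an SD of at least 0.5 times that of Serpina3n, the nearest were Pamr1 (0.157), Cp (0.233), Gdpd2 (0.235), Prelp (0.247) and Dcn (0.272), in log2 units. Dcn, the proteoglycan decorin, was at 0.615 to 0.903 FPKM in pECDCs, 0.390 to 0.542 in iECDCs and 17.4, 3.43 and 18.7 in treated replicates 1, 2 and 3. Cp was at 3.22 to 3.71, 1.77 to 1.96 and 46.1, 8.13 and 48.2 FPKM. Both had treated replicate 2 between the untreated libraries and the other treated ones, as Serpina3n did. That likeness follows from how they were picked. Serpina3g stood at place 8 by this measure (0.365) and Serpina3i at place 33 (0.719). With log2(FPKM + 0.1) 2 of the 5 genes, Cp and Dcn, remained among the nearest 5.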

How the data were processed

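RNA sequencing counts of 9 libraries, 3 each of pECDCs, iECDCs and SB431542-treated cells, were grouped by their labels. The authors deposited raw read counts per gene and FPKM values, which equalled the count divided by gene length and a library constant within 0.1% in all but 1 value. The submitters' processing notes name Bowtie2 2.0.6, TopHat2 2.0.9 and build mm9, whereas the deposited coordinates of all 14 Serpina3 entries equal those of GENCODE M21 on GRCm38. The counting program and strand setting are not given in the sources used here. Columns with the fold changes, p-values and group means of the authors' own comparisons were not used.

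Tests were run on the counts in edgeR 4.0.16 and R 4.3.3 (TMM normalization, filterByExpr with a minimum count of 10 and a total of 15, quasi-likelihood test), with only the 2 compared groups in a fit and Benjamini-Hochberg adjustment over all genes tested. The tests were first checked on simulated counts. Alternatives were DESeq2 1.42.0, RLE size factors, no filter on low counts, the replicate number as a block, all 9 libraries in the fit, leaving out each library, and log2(FPKM + 1) or log2(FPKM + 0.1). FPKM values enter no test. Intervals are exact binomial at 95% and cover counting error only, and a total of at most 3 counts is taken as the floor. Sequences were taken from GENCODE M21 transcripts and RefSeq promoters with python 3.11.15 and biopython 1.88, and plots were drawn with matplotlib 3.10.9.

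The members and gene lists were chosen with earlier results of these data known. The genes named are the 8 members, 11 regulators, from each other list and comparison up to 3 genes with the largest change among those with an adjusted p under 0.05 and at least 1 FPKM in the higher group, markers, and the 5 genes with the profile nearest to Serpina3n. C3, Lbp, Lcn2, Saa3, Steap4, Serpina1e, Ptx3, Il6, Clcf1, Lifr, Il6ra, Jak1, Jak2, Tyk2, Ctsz, Ctsl, Prtn3 and Tsc22d3 are named in some comparisons outside this rule, after their values were seen. For a few genes on the lists no own value is reported here, although they enter the counts.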

Additional observations from a re-analysis of the deposited data

How the results depend on the processing

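No fold change of Serpina3n, Serpina3g or Serpina3i changed direction under any alternative. Leaving out 1 library, the log2 fold change of Serpina3n was -0.50 to -0.32 for iECDCs against pECDCs, 3.66 to 4.44 for treated cells against iECDCs and 3.27 to 4.07 against pECDCs. That of Serpina3g was -2.69 to -2.25, 6.72 to 7.61 and 4.28 to 5.19, and that of Serpina3i -4.06 to -2.68, 5.92 to 7.29 and 2.91 to 3.75. Values on the log2(FPKM + 1) scale were smaller for the low genes, with Serpina3g at -0.90 for iECDCs against pECDCs and 4.22 for treated cells against iECDCs, and Serpina3i at -0.47 and 2.14, since the pseudocount understates the change of low genes. With all 9 libraries in the fit Serpina3n, Serpina3g and Serpina3i did not pass the threshold for iECDCs against pECDCs. Serpina3n did not pass there without pECDC replicate 2 or 3 or iECDC replicate 1 or 2, nor did Serpina3i for treated cells against pECDCs without pECDC replicate 1, 2 or 3.

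Genes passing the threshold numbered 1036 to 4467 when 1 library was left out for iECDCs against pECDCs, 1707 to 7001 for treated cells against iECDCs and 2453 to 9188 against pECDCs. The highest values were without iECDC replicate 3 (4467) and without treated replicate 2 (7001 and 9188). Listed genes passing numbered 26 to 59, 42 to 83 and 40 to 93. With all 9 libraries in the fit 671 genes and 18 listed genes passed for iECDCs against pECDCs, where the spread of the treated libraries enters the estimate. The replicate number as a block gave 1791, 3038 and 3886 genes and 41, 57 and 56 listed genes. Same-numbered libraries did not deviate together (correlations -0.207 to 0.0329), so no pairing by number was seen. With so few libraries in a group, this check cannot exclude one.

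With 50-base windows the share of transcript sequence found in another Serpina3 gene was 4.25% for Serpina3c, 10.6% for Serpina3f, 15.5% for Serpina3g, 21.9% for Serpina3h, 15.9% for Serpina3i, 14.0% for Serpina3k, 19.1% for Serpina3m and 6.90% for Serpina3n. Depth limits the 5 members that were not tested, of which Serpina3k had 0 reads in every library. The other 4 entered some alternative fits, where, for treated cells against either untreated group, Serpina3c, Serpina3f, Serpina3h and Serpina3m passed as higher without the filter and without treated replicate 2. With DESeq2 Serpina3c, Serpina3f and Serpina3m passed and Serpina3h did not. When a library of the untreated group was left out, only Serpina3m of these passed. Nothing is read from these passes, because the members were chosen with their levels known. The reads of these 4 also came mostly from the treated libraries.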
